A study of Mus musculus with 19 samples.

Results

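For 10 transcription factors that set the fate of CD8 T cells, the genes were looked up among the probe sets of an oligonucleotide array. These were Eomes, Tbx21, Tcf7, Lef1, Id2, Id3, Klf2, Satb1, Gata3 and Runx3, and every probe set whose gene symbol in the platform's probe table named one of them was taken. The rule found 9 probe sets for 7 of the 10 genes, among 12422 probe sets and 8251 genes with a symbol of their own. Eomes and Lef1 had 2 probe sets each, and Id2, Id3, Klf2, Satb1 and Gata3 had 1 each. Tbx21, Tcf7 and Runx3 were not named in the table and were not analysed here.

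The cells were OT-I cells, CD8 T cells of a mouse line whose transgenic receptor recognises a peptide of ovalbumin. Per the labels they had been transferred into b6 mice and sorted from ln/spleen (lymph node and spleen). The irradiated hosts gave 8 arrays at day 5, 4 at day 40 and 3 at day 115, and unirradiated hosts gave 4. The titles give day 5 for the first group while the descriptions give day 6, the day on which cells of the unirradiated hosts were also sorted. Time and irradiation therefore change together at days 40 and 115, for which no unirradiated group was analysed here. For 2 of the day-5 arrays, 1 and 2, the description leaves out the cell type, and no label says which arrays came from separate animals, so p-values measure only the spread between these arrays. The labels state no radiation dose, cell dose or sort gate, nor which lymphocytes the hosts retained.

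CD8 T cells that meet few other lymphocytes divide in response to self peptides and the cytokine IL-7, and many of them take on features of memory cells. The T-box factor Eomes promotes cytotoxic and memory genes, whereas Lef1 and its relative Tcf7, which read out beta-catenin signals, are typical of naive and long-lived memory cells. Id2 and Id3 lack a DNA-binding region and hold E proteins away from DNA: Id2 is associated with effector cells and Id3 with precursors of long-lived memory. Klf2 keeps T cells quiescent and lets them leave lymphoid tissue, Satb1 organises chromatin in thymocytes and T cells, and Gata3 is a zinc finger factor that also acts in CD8 T cell maintenance.

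The promoters of Lef1, Id3 and Id2 are shown because these are the genes with a call in at least 1 comparison below. Each is the stretch of 250 bases before the annotated start, 5′ to 3′ on the gene's strand, from RefSeq on GRCm38.p6. Capitals mark the E-box CANNTG, the element bound by E proteins. For Lef1, on the plus strand, the stretch is chr3:131110047-131110296, before the most upstream of 4 listed starts. For Id3, also on the plus strand, it is chr4:136143572-136143821, and for Id2, on the minus strand, it is chr12:25096093-25096342.
Lef1 promoter: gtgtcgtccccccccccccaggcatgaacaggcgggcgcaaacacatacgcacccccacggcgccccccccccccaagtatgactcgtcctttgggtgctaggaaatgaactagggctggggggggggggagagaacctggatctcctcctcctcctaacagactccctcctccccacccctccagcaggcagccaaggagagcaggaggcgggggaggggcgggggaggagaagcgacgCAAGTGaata
Id3 promoter: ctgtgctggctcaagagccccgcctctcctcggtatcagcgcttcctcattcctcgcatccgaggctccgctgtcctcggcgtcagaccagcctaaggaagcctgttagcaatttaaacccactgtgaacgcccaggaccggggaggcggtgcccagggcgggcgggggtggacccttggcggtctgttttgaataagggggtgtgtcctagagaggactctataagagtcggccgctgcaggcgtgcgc
Id2 promoter: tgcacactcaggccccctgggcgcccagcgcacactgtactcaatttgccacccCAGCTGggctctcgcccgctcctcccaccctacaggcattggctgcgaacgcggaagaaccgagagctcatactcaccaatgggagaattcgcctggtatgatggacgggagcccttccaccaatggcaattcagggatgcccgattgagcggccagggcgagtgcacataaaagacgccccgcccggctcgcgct
One E-box lay 10 bases before the Lef1 start (CAAGTG) and 1 lay 196 bases before the Id2 start (CAGCTG), while the Id3 stretch had none. Of 32851 mouse promoters of the same length, 66.2% held this short element on either strand. CTTTGA, a core of TCF and LEF sites, was found in none of the 3 and in 13.8% of promoters. CCACCC, a core of KLF sites, occurred once each before Lef1 and Id3 and at 2 places before Id2, and in 28.1% of promoters, on either strand as for the other motifs. The RUNX core TGTGGT was absent from these windows and present in 14% of promoters. For T-box factors the letters searched were AGGTGTGA, not found here but found in 1.12% of promoters. The letters AGATAA, read by GATA factors, were not found here either, and found in 9.99%. These matches describe the letters only.

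The deposited table held 1 linear signal intensity per probe set and array, with array medians of 49.6 to 53.7. The 8695 probe sets whose mean signal exceeded 26.4, the 30th percentile, were tested, and all 9 were among them. Cd8a ranged from 1850 to 3910, Cd8b1 from 2540 to 6070 and Cd4 from 128 to 195 over the 19 arrays. Of the natural killer list 3 of 6 genes averaged above the filter and of the myeloid list 8 of 13, with Ncr1, Lyz2, Adgre1 and Itgam below it and Csf1r, at 42.5 to 63.5, above it. The named myeloid genes do not stand for their list, whose summed signal was 1150 to 1880 at day 115 and 2640 to 3400 in unirradiated hosts. The arrays fell into 2 clusters by overall correlation that cut across the groups. All 3 day-115 arrays were in cluster 1, together with arrays 1 to 3 of day 5 and arrays 1 and 2 of day 40. The 4 unirradiated arrays were in cluster 2, with arrays 4 to 8 of day 5 and arrays 3 and 4 of day 40. The labels name no batch, so each comparison was fitted on groups alone, then with an additive term for the cluster, and also among the arrays of a single cluster. At day 115 against unirradiated hosts each group lies in a cluster of its own. There the fit with the term rests on the cluster difference seen at days 5 and 40, and the cluster and the condition cannot be told apart directly.

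**Figure D1:**
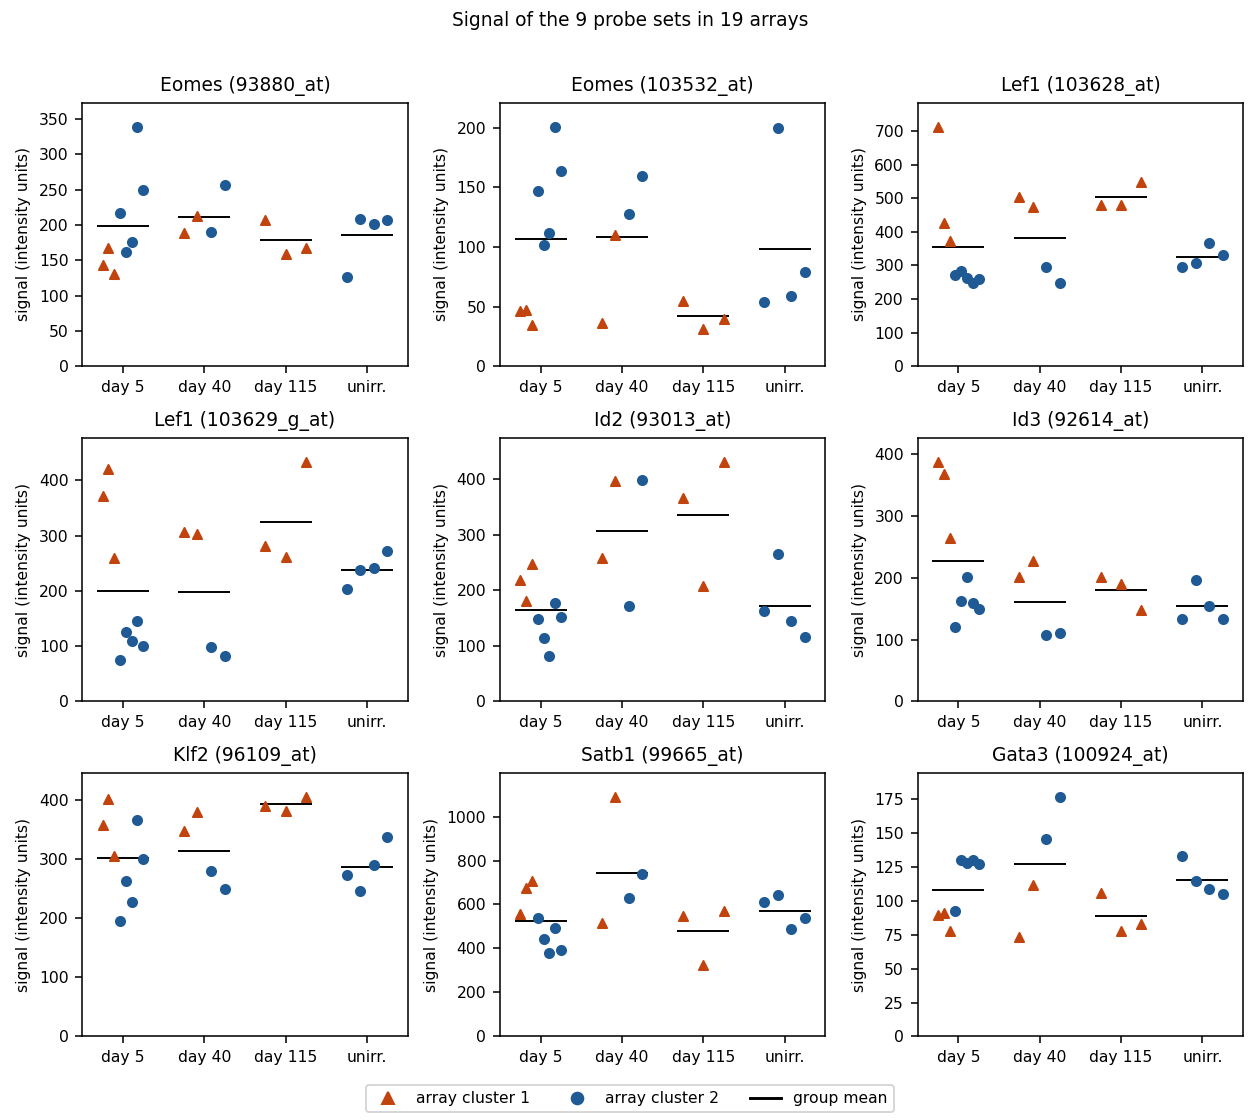
Signal of each of the 9 probe sets (linear intensity units, axis from 0) in the 19 arrays, by group. Triangles are arrays of cluster 1, circles arrays of cluster 2 and bars group means. Within day 5 and day 40, Lef1, Id3 and Eomes (103532_at) separate by cluster, and the Id2 signals at days 40 and 115 reach above those of day 5.

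The 3 comparisons with unirradiated hosts share the same 4 unirradiated arrays. On groups alone, none of the 9 probe sets passed the threshold against unirradiated hosts at any time (limma, Benjamini-Hochberg adjusted p under 0.05). At day 5 0.794% of all tested probe sets passed, at day 40 1.5% and at day 115 27.9%. The median difference of the 9, on the log2(signal + 16) scale, was 0.04 at day 5, 0.15 at day 40 and 0.20 at day 115, and that of all tested probe sets was 0.029, 0.026 and 0.012. At an unadjusted p under 0.05 only Id2 was found, at day 40 (limma unadjusted p = 0.0282) and day 115 (0.0178). In bulk RNA, fewer cells of a type and less RNA per cell cannot be told apart. With the cluster term 1 of 9 was lower at day 5, 1 at day 40 and 2 at day 115, against 0.61%, 0.426% and 1.27% of all tested probe sets that were called lower and 1.61%, 2.23% and 4.42% called in either direction. None of the 9 was higher. On groups alone, no probe set of the 9 was free of overlap with the unirradiated arrays at days 5 and 40, and 2 were at day 115, Lef1 (103628_at) and Klf2, against 3.46%, 13.8% and 42.7% of all. The ones called lower with the term were a Lef1 probe set at each time and Id3 at day 115.

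The Lef1 probe set 103629_g_at was lower in irradiated than in unirradiated hosts once arrays of the same cluster were compared. Within cluster 2 its signals were 74, 125, 109, 146 and 99.7 at day 5 and 97.6 and 82.5 at day 40, against 203, 238, 241 and 272 in the unirradiated hosts. Every irradiated array of cluster 2 lay below every unirradiated array. The log2 difference within cluster 2 was -1.03 ± 0.15 (SE, n = 5 against 4, limma adjusted p = 0.00436), a signal 0.49 times that of unirradiated hosts, at day 5. At day 40 it was -1.26 ± 0.19 (n = 2 against 4, limma adjusted p = 0.0043), or 0.417 times, and this call was lost without day-40 array 4. In this cluster 2.38% of all tested probe sets were called at day 5 and 3.07% at day 40, 0.966% and 0.483% as lower, and arrays did not overlap between the groups for 6.16% and 26%.

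In cluster 1 the same probe set read 371, 421 and 260 at day 5, 307 and 303 at day 40, and 281, 261 and 434 at day 115. These 8 values included all those above the unirradiated range and none below it, and the day-115 arrays differed from the day-5 arrays of cluster 1 by -0.11 (95% interval -0.64 to 0.41). With the cluster as a term in a fit of all 19 arrays, the differences from unirradiated hosts were -1.04 ± 0.17 at day 5 (limma adjusted p = 0.00267), -1.24 ± 0.20 at day 40 (limma adjusted p = 0.00116) and -1.17 ± 0.25 at day 115 (limma adjusted p = 0.0129). These 3 calls held with any 1 array left out, between -1.38 and -0.94. On groups alone the values were -0.45, -0.46 and 0.39 (limma adjusted p = 0.606, 0.651 and 0.591), so that at day 115 the sign turned with the term.

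The other Lef1 probe set, 103628_at, which the probe table ties to the same database sequence, gave smaller differences. It read 272, 282, 263, 249 and 260 in the day-5 arrays and 294 and 249 in the day-40 arrays of cluster 2, against 296, 306, 368 and 331 in unirradiated hosts. The 2 sets of arrays again did not overlap, as for 6.16% of all tested probe sets at day 5 and 26% at day 40. The log2 differences were small, at -0.28 (95% interval -0.48 to -0.07, limma adjusted p = 0.18) and -0.25 (-0.52 to 0.02, limma adjusted p = 0.369). In cluster 1 its signals were 713, 427 and 372 at day 5, 504 and 475 at day 40 and 480, 481 and 548 at day 115, all above every unirradiated array, which at day 115 held for 42.7% of probe sets in 1 direction or the other. The day-115 group differed by 0.61 (-0.03 to 1.24, limma adjusted p = 0.139) on groups alone and differed by -0.22 (-0.65 to 0.21) with the term. Both Lef1 probe sets were thus higher in cluster 1 than in the irradiated arrays of cluster 2, and only 103629_g_at passed against unirradiated hosts. Whether the 2 probe sets differ in this was not tested.

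Id2 and Id3, both antagonists of E proteins, differed in which times were higher, but their calls came from different fits. Id2 was the only one of the 9 probe sets to be called in any of the 6 comparisons on groups alone, in day 115 against day 5, where 13.9% of all tested probe sets passed and 8.23% were called higher. In day 40 against day 5, where 1.25% passed, and day 115 against day 40, where 0.092% passed, none of the 9 was called. At day 5 the lowest Id2 signal was 81.6, the median 165 and the highest 248. It read 259, 397, 172 and 399 at day 40 and 367, 208 and 432 at day 115, against 163, 265, 144 and 116 in unirradiated hosts. One day-115 array and 1 day-40 array lay inside the day-5 range and the rest above it.

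Id2 was higher at day 115 than at day 5 by 0.96 ± 0.31 (95% interval 0.31 to 1.60, limma adjusted p = 0.0457), a 1.94-fold difference. The call was lost with the cluster term, at 0.63 ± 0.31 (limma adjusted p = 0.168), within cluster 1, at 0.55 (-0.05 to 1.15, limma adjusted p = 0.274), and without any 1 of day-5 arrays 4 to 8 or day-115 arrays 1 and 3, at 0.75 to 0.98. At day 40 the difference from day 5 was 0.82 ± 0.28 on groups alone (limma adjusted p = 0.168), 0.75 ± 0.25 with the term (limma adjusted p = 0.068), 0.55 within cluster 1 and 0.92 within cluster 2. In cluster 1 the arrays of these 2 days did not overlap, as for 27.7% of all tested probe sets. Against unirradiated hosts the values were -0.05 at day 5, 0.76 (0.09 to 1.44, limma adjusted p = 0.267) at day 40 and 0.90 (0.17 to 1.63, limma adjusted p = 0.059) at day 115. With the term the day-115 value was 0.39 (-0.42 to 1.19). As folds on groups alone, the intervals ran from 1.06 to 2.71 at day 40 and from 1.13 to 3.10 at day 115.

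Id3 was lower at days 40 and 115 than at day 5 when the cluster was in the fit. In cluster 1 it read 388, 368 and 265 at day 5, 201 and 227 at day 40 and 202, 190 and 148 at day 115. In cluster 2 it read 107 and 110 at day 40, against 120, 162, 201, 160 and 150 at day 5. Within either cluster no later array reached the day-5 range, an absence of overlap shared by 26.2% of probe sets for day 115 in cluster 1, and by 27.7% and 22.7% for day 40 in clusters 1 and 2. With the term, Id3 fell by 0.83 on the log2 scale at day 115 relative to day 5 (SE 0.17, limma adjusted p = 0.00429, 0.564 times) and by 0.54 at day 40 (SE 0.13, limma adjusted p = 0.0184, 0.688 times). In these comparisons 14.3% and 7.48% of all tested probe sets were called, 7.1% and 2.33% as lower. In day 115 against day 40, with 0.196% called, none of the 9 passed with the term. The day-115 call held with each of the 11 arrays left out in turn, and the day-40 call was lost without day-40 array 1, 3 or 4.

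On groups alone Id3 passed in neither comparison, at -0.22 (95% interval -0.85 to 0.41) and -0.42 (-0.99 to 0.15). Within single clusters it did not pass either, at -0.86 in cluster 1 for day 115 (limma adjusted p = 0.0623), and for day 40 at -0.61 in cluster 1 and -0.48 in cluster 2 (limma adjusted p = 0.504 and 0.128). The shares of all tested probe sets called in these 3 fits were 1.28%, 0.0115% and 5.66%. Unirradiated hosts read 134, 196, 155 and 133, which overlapped the day-5 arrays of cluster 2, with a difference of 0.03 (-0.26 to 0.33) within that cluster. Both day-40 arrays of cluster 2 lay below all 4, by -0.44 (-0.83 to -0.05, limma adjusted p = 0.237), an absence of overlap shared by 26% of all tested probe sets. At day 115 the difference from unirradiated hosts was -0.77 ± 0.21 with the term (limma adjusted p = 0.0411) and 0.20 ± 0.34 on groups alone (limma adjusted p = 0.683). That call did not survive leaving out array 2 or 3 of day 115, nor array 2, 3 or 4 of the unirradiated hosts, at values of -0.86 to -0.65 over all arrays left out in turn.

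Set against each other in the same array, Id2 minus Id3 on the log2 scale ran from -1.15 to 0.29 at day 5 (median -0.27), from 0.34 to 1.72 at day 40 (median 0.69), from 0.13 to 1.45 at day 115 (median 0.82) and from -0.17 to 0.41 in unirradiated hosts (median 0.08). Different probe sets have no common scale, so only the change of this difference between arrays can be read. Each day-40 array lay above each day-5 array. One day-115 array, the second, lay within the day-5 range. The pair was set side by side after its values had been seen, and the difference was not tested.

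**Figure D2:**
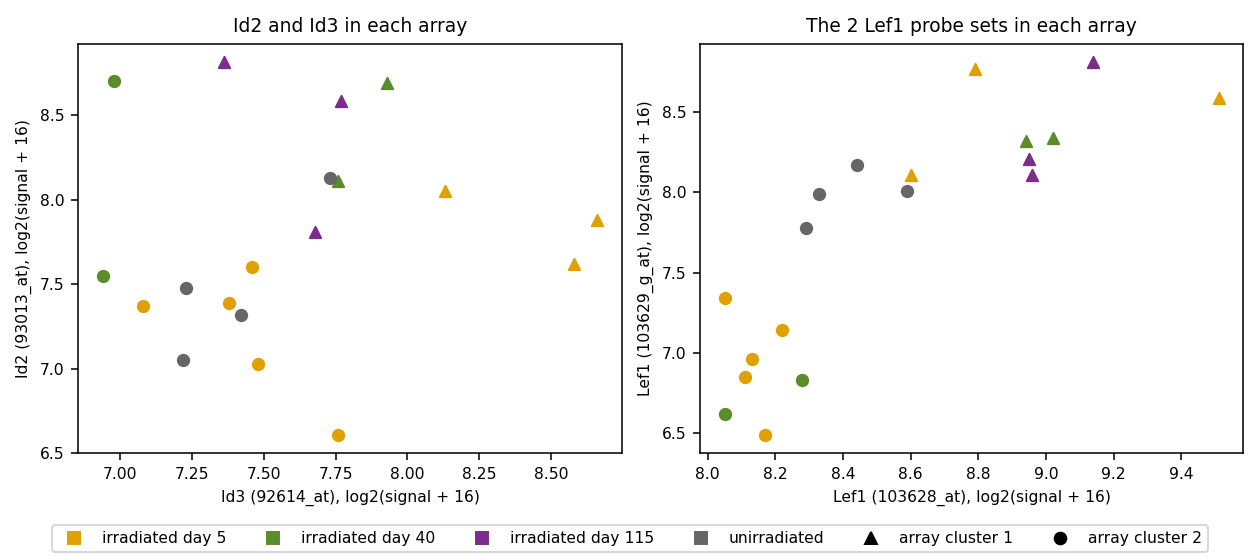
Left, Id2 against Id3, and right, the 2 Lef1 probe sets against each other, as log2(signal + 16) in each of the 19 arrays. Colours give the group and shapes the array cluster. In the Id panel the day-5 arrays lie at higher Id3 than the later arrays of their cluster, and the Lef1 panel separates cluster 1 (upper right) from the irradiated arrays of cluster 2 (lower left), with unirradiated hosts between.

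Eomes did not pass in any comparison with either probe set. Probe set 93880_at read, at its lowest, median and highest, 131, 172 and 339 at day 5, with 188, 212, 190 and 257 at day 40, 207, 159 and 168 at day 115, and 126, 209, 201 and 207 in unirradiated hosts. The whole groups overlapped throughout. Within cluster 1 the 2 day-40 arrays lay above the 3 day-5 arrays, by 0.41 (limma adjusted p = 0.644), where 27.7% of probe sets did not overlap. The differences of 93880_at from unirradiated hosts were 0.05 (95% interval -0.37 to 0.48), 0.19 (-0.30 to 0.68) and -0.04 (-0.56 to 0.49) on groups alone, and 0.21, 0.39 and 0.37 with the term. On groups alone the highest upper bound of the 3 intervals, at day 40, was 1.6-fold. With the term the upper bounds were 1.79-fold at day 40 and 1.91-fold at day 115.

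Probe set 103532_at of Eomes read 46.5, 46.9 and 35 in the day-5 arrays of cluster 1 and 147, 102, 112, 201 and 164 in those of cluster 2. At day 40 it read 36 and 110 in cluster 1 and 128 and 160 in cluster 2. The day-115 arrays read 54.8, 31.1 and 39.5, and the unirradiated arrays 54.1, 200, 59.2 and 78.7. Against unirradiated hosts it differed by 0.09 (-0.76 to 0.94), 0.15 (-0.83 to 1.14) and -0.84 (-1.90 to 0.22) on groups alone, and by 0.57, 0.79 and 0.43 with the term (limma adjusted p = 0.457, 0.293 and 0.554). At day 40 the interval with the term ran from 0.10 to 1.48, up to 2.79-fold. The sign at day 115 differed between the fits, and neither value passed the test.

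Klf2 read 358, 403, 305, 195, 264, 227, 366 and 301 at day 5, 348, 380, 281 and 249 at day 40 and 391, 382 and 406 at day 115, against 274, 247, 291 and 337 in unirradiated hosts. All 3 day-115 arrays lay above all unirradiated and day-40 arrays, an arrangement shared by 42.7% of probe sets against unirradiated hosts and 8.4% against day 40. The day-115 difference from unirradiated hosts was 0.44 (-0.01 to 0.89, limma adjusted p = 0.131) on groups alone and 0.03 (-0.41 to 0.47) with the term. At days 5 and 40 the differences were 0.05 (-0.32 to 0.41) and 0.12 (-0.30 to 0.53).

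Satb1 had its lowest, median and highest signals at 381, 517 and 709 at day 5, and read 516, 1090, 631 and 737 at day 40, 546, 326 and 572 at day 115 and 613, 642, 490 and 537 in unirradiated hosts. Array 2 of day 40 was the highest of the 19, and the groups overlapped. Within cluster 2 the 2 day-40 arrays lay above the 5 day-5 arrays, by 0.59 ± 0.16 (limma adjusted p = 0.0533), where 22.7% of probe sets did not overlap. Over all arrays the day-40 minus day-5 difference was 0.47 (0.03 to 0.92, limma adjusted p = 0.367), and day 115 differed from day 40 by -0.60 (-1.15 to -0.04, limma adjusted p = 0.349). Against unirradiated hosts its differences were -0.14, 0.33 and -0.27.

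Gata3 had its lowest, median and highest signals at 77.9, 109 and 130 at day 5, and read 73.1, 112, 146 and 177 at day 40 and 106, 77.5 and 82.8 at day 115, against 133, 115, 109 and 105 in unirradiated hosts. Within cluster 2 both day-40 arrays exceeded every unirradiated array, by 0.43 ± 0.14 (0.13 to 0.74), and every day-5 array, by 0.38 ± 0.14 (0.08 to 0.67). Neither difference passed over all probe sets (limma adjusted p = 0.133 and 0.13). Arrays did not overlap in these comparisons for 26% and 22.7% of all tested probe sets. On groups alone the differences from unirradiated hosts were -0.10 (-0.46 to 0.26), 0.07 (-0.35 to 0.49) and -0.33 (-0.79 to 0.12).

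**Figure D3:**
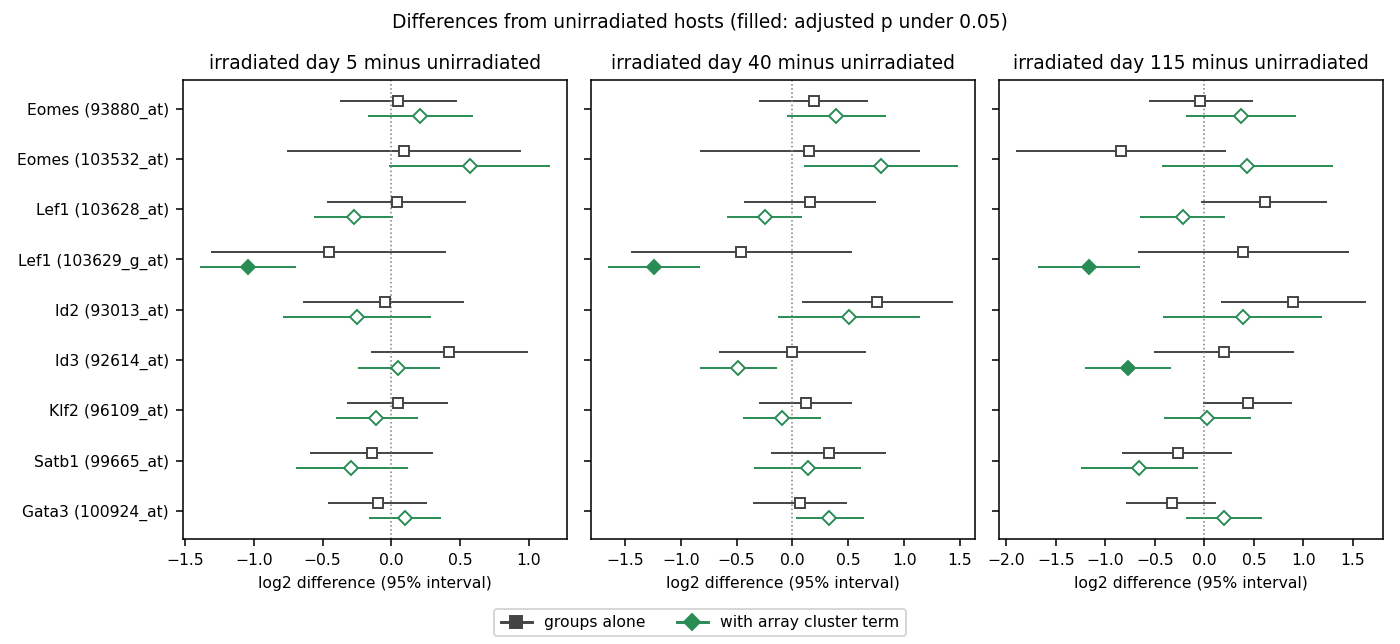
Log2 difference of each irradiated group minus unirradiated hosts for the 9 probe sets, with 95% intervals (limma, log2(signal + 16)). Squares are from the fit on groups alone and diamonds from the fit with the array cluster term, filled where the adjusted p was under 0.05. Filled diamonds are Lef1 (103629_g_at) at all 3 times and Id3 at day 115, and no square is filled.

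Within the irradiated groups the array clusters separated a large share of all tested probe sets, with most of the 9 among them. At day 5, 7 of the 9 probe sets had no overlap between the 3 arrays of cluster 1 and the 5 of cluster 2, 5 of them higher and 2 lower in cluster 1, as did 47.7% of all tested probe sets. At day 40 it was 6 of 9, 4 higher and 2 lower, against 63.7% of all. Since the clusters were drawn from these same values, this is a description with no test. The cluster 1 minus cluster 2 differences at day 5 and day 40 were 1.54 and 1.60 for Lef1 (103629_g_at), 0.83 and 0.82 for Lef1 (103628_at), 1.02 and 0.89 for Id3, 0.65 and 0.27 for Id2, 0.40 and 0.44 for Klf2 and 0.51 and 0.14 for Satb1. They were -1.43 and -0.98 for Eomes (103532_at), -0.55 and -0.14 for Eomes (93880_at) and -0.42 and -0.73 for Gata3. Klf2 overlapped between the clusters at day 5, Id2 and Satb1 at day 40, and Eomes (93880_at) at both days.

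Whether the day-40 minus day-5 difference depended on the cluster was tested as an interaction over all probe sets. limma called 0 of 8695 after Benjamini-Hochberg adjustment, with 500 at an unadjusted p under 0.05. The interaction of the 9 ran from -0.37 to 0.45, and their lowest adjusted p was 0.954. Each combination of cluster and day held only 2 to 5 arrays, which limits the precision.

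Summed marker levels of several other cell types and of CD8 genes moved with the clusters or groups, but not those of all lists. For the natural killer list the sum was 217 to 277 at day 115, against 260 to 308 in unirradiated hosts. For the stroma and vessel list it was 600 to 762, against 669 to 789. The summed signal of 12 CD8 T cell identity genes was 15700 to 17600 in cluster 1 and 11000 to 14300 in cluster 2 at day 5, and 16200 to 17600 and 10800 to 11500 at day 40. For the myeloid list, of which 8 of 13 genes averaged above the filter, it was 1660 to 1770 in cluster 1 and 2920 to 3220 in cluster 2 at day 5. The myeloid sum was 1630 to 3230 at day 40 and 1150 to 1880 at day 115, against 2640 to 3400 in unirradiated hosts. The sum of the B cell list, with 12 of 14 genes above the filter, was 1570 to 3130 at day 5, 2060 to 3650 at day 40 and 2960 to 4610 at day 115, against 1310 to 1570 in unirradiated hosts. On groups alone, 4 of its 12 tested genes rose at day 115, where 27.9% of all tested probe sets passed. They were H2-Aa (1.98), Ighm (1.92), Cd74 (1.51) and H2-Ab1 (1.16). With the term only Ighm passed (0.95, limma adjusted p = 0.00725), against 4.42% of all. Cd79a, Cd79b and Ms4a1, which define B cells, ran from 114 to 187, from 75 to 275 and from 75.8 to 167 over all arrays. At day 115 the summed signal of the plasma cell list was 983 to 1280, against 307 to 441 in unirradiated hosts, that of the erythroid list 582 to 1350, against 313 to 458, and that of the dendritic cell list 722 to 1270, against 489 to 564. These 2 groups lie in different clusters, and the sums also differed between clusters within day 5. There the dendritic cell sum was 650 to 904 in cluster 1 and 404 to 503 in cluster 2. The erythroid sum was 444 to 2660 and 344 to 926, and the plasma cell sum 412 to 486 and 304 to 365. For the B cell list it was 2500 to 3130 and 1570 to 1780. Of 6 tested plasma cell genes, 2 rose at day 115 on groups alone, Txndc5 by 2.78 and Jchain by 0.96, against 27.9% of all tested probe sets called. The median difference of these 6 was 0.04, and Jchain read at most 141. Of 15 RNA handling and stress genes, with the term, 7 were lower and 1 higher at day 115 than at day 5 (median -0.52, against -0.038 over all tested probe sets). In that fit 14.3% of all tested probe sets were called, 7.1% as lower. Also with the term, 4 were lower at day 115 than in unirradiated hosts (median -0.68, against -0.046), Egr1 among them. There 4.42% of all were called, 1.27% as lower. Fos, an immediate early gene of that list, ran from 13.8 to 907. The part of these differences in the values of Lef1, Id2 and Id3 was not tested.

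A part of the genes reported as targets of T-box factors rose in irradiated hosts at days 40 and 115, most of them genes of cytotoxic or memory cells. Of 17 tested, 1 rose and 0 fell at day 5, 7 rose and 1 fell at day 40, and 9 rose and 2 fell at day 115 on groups alone, and with the term it was 1 and 1, 8 and 1, and 7 and 1. Of all tested probe sets, 0.794%, 1.5% and 27.9% passed on groups alone, and 1.61%, 2.23% and 4.42% with the term. The median difference of the 17 at day 40 was 0.43 on groups alone, 0.28 with the term and 0.15 within cluster 2, against 0.026, -0.019 and -0.008 over all tested probe sets. Ccl5, a chemokine of memory CD8 T cells, was higher by 2.84 ± 0.43 at day 40 (limma adjusted p = 0.00124), and Fasl, a death ligand of killer cells, by 1.51 ± 0.10 (limma adjusted p = 9.53e-08). The chemokine receptor gene Cxcr3 rose at all 3 times, by 1.66, 2.56 and 2.93, and the granzyme gene Gzmm by 1.77 at day 40 and 2.70 at day 115. Il18rap, a chain of the IL-18 receptor, rose by 1.48 at day 115. Itga4, an integrin chain, fell by 0.75 at day 40 and by 0.84 at day 115 (limma adjusted p = 0.0031 and 0.000812). Gzmb, Gzma, Ccl3 and Ccl4 did not pass at any time, and Ifng, Klrg1, Gzmk and Il12rb2 were under the filter. Eomes itself, as given above, did not pass, and Tbx21 was not analysed.

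Genes reported as targets of TCF1 and LEF1 mostly did not pass. Of 12 tested, which include Lef1, Eomes and Satb1, 2 fell at day 5, Il7r and Bcl6, and 1 at day 40, Bcl6, with none higher on groups alone, against 0.794% and 1.5% of all tested probe sets. Il7r, the IL-7 receptor chain of resting T cells, averaged 787 at day 5, against 1780 in unirradiated hosts, a difference of -1.17 ± 0.25 (limma adjusted p = 0.0348; -0.99 with the term). At day 40 it averaged 2240, and it did not pass there (limma adjusted p = 0.627). Bcl6, a transcriptional repressor of memory CD8 and follicular helper T cells, differed by -0.74, -0.65 and -0.79 at the 3 times on groups alone, and by -0.67, -0.56 and -0.62 with the term, where only day 5 passed (limma adjusted p = 0.00999, 0.0643 and 0.0716). At day 115, 1 gene rose, Il2rb, and 2 fell, Bcl6 and the actin cross-linker gene Actn1 (-2.62 ± 0.52, limma adjusted p = 0.00276; -1.03 with the term). These are 3 of 12 genes, a share near the 27.9% of all tested probe sets that passed there. Ccr7, Axin2, Myc and Cd27 passed at no time. The beta-catenin pathway, of which 16 genes were tested, had no call at days 5 and 40 on groups alone or with the term, and 1 rose within cluster 2 at day 40. At day 115, 3 rose and 3 fell on groups alone, where 27.9% of all tested probe sets passed, Ctnnb1 among them at -1.92 ± 0.65 (limma adjusted p = 0.0366), which became 0.10 with the term. Csnk1a1 differed by -1.79 and Gsk3a by -1.16 on groups alone, and by -0.37 and -0.61 with the term, where neither was called. With the term 2 rose, Pygo2 and Tle3, and 0 fell, against 4.42% of all.

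Among the E proteins and their partners, 7 genes tested including Id2 and Id3, Tcf3 differed from unirradiated hosts by 0.01, -0.03 and 0.00 and Tcf12 by -0.37, 0.21 and -0.54, and neither passed. Lmo4, a LIM-domain adaptor, was the only one to pass on groups alone, at day 115 (-1.12 ± 0.28, limma adjusted p = 0.00959; -0.37 with the term). Of 7 tested genes reported to respond to E proteins, Il7r and Bcl6 fell at day 5 and Bcl6 at day 40, and at day 115 Cxcr5 rose by 0.68 while Bcl6 (-0.79) and Dntt (-0.46) fell. With the term, Il7r and Bcl6 fell at day 5, the survival gene Bcl2 rose at day 40 (1.11 ± 0.27, limma adjusted p = 0.0292), and none passed at day 115. Of all tested probe sets, 1.61%, 2.23% and 4.42% were called with the term at the 3 times. The 3 of 7 called at day 115 on groups alone stand beside 27.9% of all tested probe sets, and the calls at days 5 and 40 beside 0.794% and 1.5%. Of 6 tested genes reported as Klf2 targets, Cxcr3 rose at all 3 times, Itgb7 rose at day 115 (1.98 ± 0.40, limma adjusted p = 0.0029; 0.87 with the term, not called), and S1pr1, the receptor for leaving lymph nodes, fell there (-0.72 ± 0.18, limma adjusted p = 0.00904; -0.21 with the term, not called). Among 9 readouts of Runx3 and Gata3, Itgae, an integrin chain, fell by 0.52, 1.05 and 1.15 at days 5, 40 and 115, and Il4ra rose by 1.17 at day 40 and 1.97 at day 115, each called in both fits. Cd8a, Cd8b1, Cd4 and Zbtb7b did not pass. The calls among Klf2 targets and among these readouts stand beside the same shares of all tested probe sets. On groups alone these were 0.794%, 1.5% and 27.9% at days 5, 40 and 115, and with the term 1.61%, 2.23% and 4.42%.

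Of 50 other tested regulators of CD8 differentiation, 0 rose and 3 fell at day 5, 1 rose and 3 fell at day 40, and 3 rose and 9 fell at day 115 on groups alone, and with the term it was 0 and 2, 1 and 1, and 0 and 1. The 12 of 50 called at day 115 on groups alone are no larger a share than the 27.9% of all tested probe sets, and at days 5 and 40 0.794% and 1.5% of all passed. Egr1, an immediate early factor of receptor signalling, was called lower at each time in both fits, with -1.64 ± 0.32 at day 5, -2.19 ± 0.37 at day 40 and -2.68 ± 0.40 at day 115 on groups alone. Stat4, which transmits IL-12 signals, averaged 566 at day 40, against 195 in unirradiated hosts, a rise of 1.46 ± 0.26 (limma adjusted p = 0.00597; 1.20 with the term). Egr2 fell at day 5 (-0.62 ± 0.14, limma adjusted p = 0.0455) and Runx1, a partner-sharing relative of Runx3, at day 40 (-0.61 ± 0.15, limma adjusted p = 0.0386), and both genes also at day 115. With the term these values were -0.54 for Egr2 at day 5 (limma adjusted p = 0.0564) and -0.53 for Runx1 at day 40 (limma adjusted p = 0.0688), and neither gene passed at day 115. Hif1a, Ets1 and Cbfb, the shared partner of Runx factors, were lower at day 115 on groups alone by values of -1.82, -1.75 and -1.20, of which none passed with the term. Prdm1, Bhlhe40, Maf and Rora were under the filter.

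**Figure D4:**
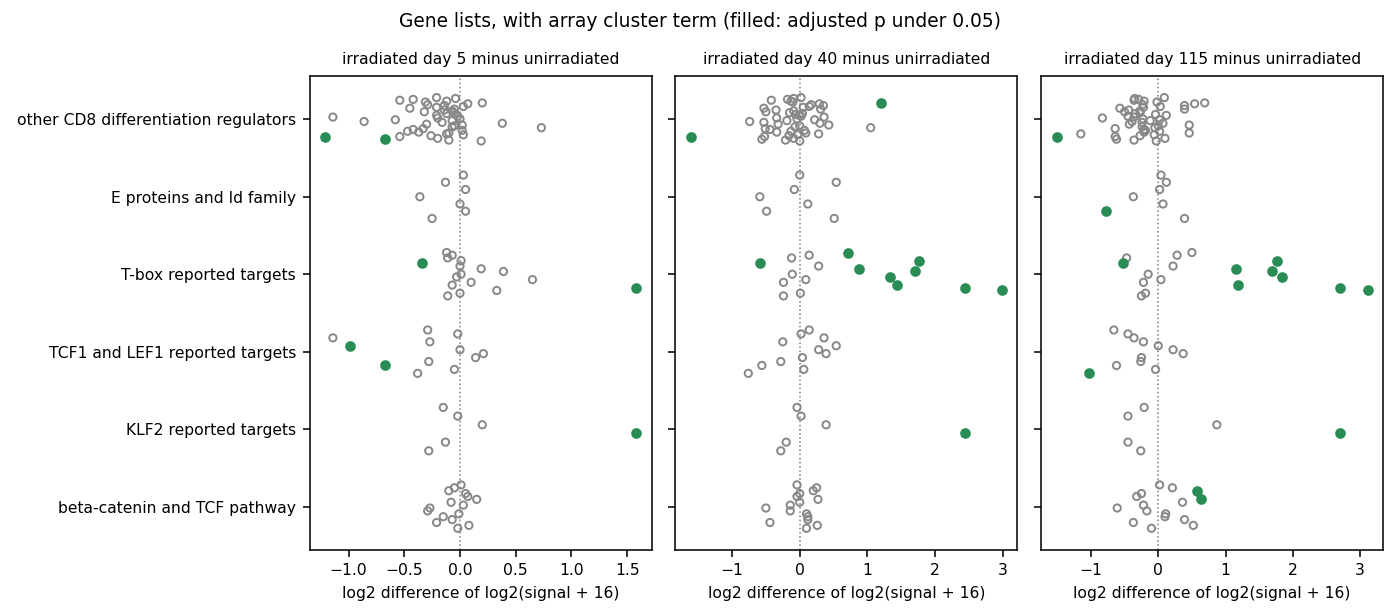
Log2 difference of each irradiated group minus unirradiated hosts for the tested genes of 6 lists, from the fit with the array cluster term. Each point is a gene, filled where the adjusted p was under 0.05. The filled points to the right at days 40 and 115 are mostly T-box targets, and the lowest filled regulator at each time is Egr1.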

How the data were processed

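Each array measured total RNA of OT-I cells from 1 of 4 groups assigned by titles and descriptions (n = 8, 4, 3 and 4). The deposited table gave linear signal intensity per probe set, from 7.68 to 13242.28. The scanner software, background correction and scaling by the authors are not given in the sources used here. Genes were named through GEO's platform annotation (10833 probe sets with 1 symbol, 396 with several, 1193 not listed). The 66 control probe sets were left out. Values were taken as log2(signal + 16) and fitted with limma 3.58.1 in R 4.3.3 (trended eBayes) over all 19 arrays and 8695 probe sets, with Benjamini-Hochberg adjustment over all of them and a threshold of 0.05. The script was tested on simulated data. The number of arrays limits the precision.

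Array clusters came from average linkage on 1 minus Pearson's r. The median r was 0.974 within a group and cluster and 0.884 within a group across clusters. The cluster term and the within-cluster fits were alternatives to the groups-only design, as were the pseudocount, filter, normalization, array weights, replicate block and each array left out. Pairing by replicate number was checked from correlations of deviations. These could not settle it, because the deviations also carry the array cluster. All 9 probe sets of the rule were named, and from each list up to 4 genes per comparison with unirradiated hosts, those called on groups alone with the largest differences. Of the genes so picked from the marker and stress lists, Cd2, Thy1, Ctss, Spi1, Klrb1b, Itgax, Hba-a1, Col1a1, Jund and Ier3 are not described above. Itga4, Bcl2, Tle3, Tcf3, Tcf12 and the genes named as not passing or under the filter, and the pair of Id2 and Id3, were chosen after their values were seen. A gene was read by its brightest probe set. The 10 genes, the lists and the clusters were chosen with earlier results of these data known. Lists overlap, for example in Cxcr3, Bcl6, Egr1, Il7r and Il2rb.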

Additional observations from a re-analysis of the deposited data

Results flagged for a closer look

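One array stood apart from the other 3 of its group among the 27 combinations of probe set and group examined. Eomes (93880_at) read 126 in unirradiated array 1, against 201 to 209 in the other 3, a gap of 0.923 of the group's range. The criterion used, Dixon's 95% critical value, is passed by chance in about 1 in 20 groups. Id2 differed between irradiated hosts at day 115 and day 5 by 0.96 on the log2 scale, and that call was lost with the cluster term, as given above.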

How the results depend on the processing

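On groups alone, 69 probe sets passed for day 5, 130 for day 40 and 2427 for day 115 against unirradiated hosts, 109 for day 40 and 1205 for day 115 against day 5, and 8 for day 115 against day 40, the order kept below. The cluster term gave 140, 194, 384, 650, 1246 and 17, and turned the direction of 2 values that it called, at day 115 against unirradiated hosts, Lef1 (103629_g_at) at -1.17 and Id3 at -0.77. Of the 54 values, it also turned the sign of 15 that were called in neither fit, among them Eomes (103532_at), Eomes (93880_at), Lef1 (103628_at) and Gata3 at day 115 against unirradiated hosts. Array quality weights gave 458, 968, 4097, 1496, 3702 and 3026, fits of only the compared arrays 40, 273, 3224, 46, 658 and 0, and the replicate block 1707, 407, 2235, 35, 198 and 3. With this replicate block Id2 for day 115 against day 5 was 0.63 (limma adjusted p = 0.325) and Id3 for day 5 against unirradiated hosts 0.72 (limma adjusted p = 0.0347). Correlations of same-numbered arrays ran from -0.67 to 0.76. In day 40 against day 5 they were 0.64, 0.62 and 0.76 for numbers 1, 2 and 4, whose arrays share a cluster. Number 3, whose arrays do not, gave -0.67. The correlations thus cannot tell whether the numbers pair the arrays. Within cluster 1 the counts were 1 for day 40 and 111 for day 115 against day 5 and 0 for day 115 against day 40, and within cluster 2 they were 207 and 267 for days 5 and 40 against unirradiated hosts and 492 for day 40 against day 5. With no filter, day 115 gave 1865 against day 5 and 63 against day 40, where the 50th-percentile filter gave 4 and median centring 19. Without the 2 day-5 arrays of unnamed cell type, the counts were 42 for day 5 against unirradiated hosts, 193 for day 40 against day 5 and 2329 for day 115 against day 5. Leaving out 1 array at a time gave 13 to 80, 54 to 138, 1554 to 2006, 25 to 187, 589 to 1653 and 3 to 87. The share called higher for day 5 against unirradiated hosts was 52.2%, and 36.4% with a pseudocount of 64. For day 115 against day 40 it was 100%, 80% with a pseudocount of 1, 83.3% with quantile normalization and 89.5% with median centring. Over all alternatives, the values of the 9 probe sets stayed on their side of the threshold in 1190 cases, of which 95 were uncalled values that changed sign. A call was gained in 31 and lost in 13, and in 2 an uncalled value became a call of opposite sign. These counts include the tests of the Lef1 and Id3 calls under other scales, filters and normalizations. The tests of the Lef1 and Id3 calls with the term or within a cluster, under other scales, filters and left-out arrays, were chosen after seeing the data. Id3 at day 115 against unirradiated hosts was not called there with no filter (adjusted p = 0.0534) or with median centring (-0.73, adjusted p = 0.0566). No fit within a cluster could be made for day 115 against unirradiated hosts, which share none. The cause of these shifts was not tested.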
